A study of Bos taurus with 48 samples.

Results

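The comparison described here is mammary parenchyma of calves on a restricted diet against mammary parenchyma of calves on the control diet. Its 9 libraries were all those labelled parenchyma with either diet for which counts were analysed, 6 restricted (numbers 4, 5, 8, 10, 13 and 16) and 3 control (numbers 18, 19 and 21), of 47 libraries in all. The study sequenced rRNA-depleted total RNA from parenchyma, mammary fat pad and liver of dairy calves (Bos taurus). Control calves were given standard nutrition set by a published estimate of the needs of dairy cattle, while the restricted calves had their daily milk replacer cut back. A further diet group, unlimited, had milk replacer on offer in 3 meals of 30 min a day, and its 6 parenchyma libraries serve here only as outside reference. The labels give no age, sex or breed, and do not state that every library came from its own calf; a p-value here measures the spread among libraries, which may in part be technical.

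Mammary parenchyma is the part of the gland that holds the branching epithelial ducts and the stroma around them. In the calf before weaning the ducts grow into the fat pad, a bed of adipose and connective tissue, and the plane of nutrition in this period is known to influence how much of this tissue forms. Parenchyma also contains myoepithelial, vascular and immune cells, so bulk RNA reflects the mixture: fewer cells of a type and less RNA per cell cannot be told apart in any result below. The deposited counts carry Ensembl identifiers without gene names, and the reference table used for names matched 0 of them. Genes are therefore given by identifier, with no function, and only the 2 of lowest p in each direction are printed.

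All 9 libraries correlated best with the mean of unlimited parenchyma, rather than unlimited fat pad or liver. On a scale from unlimited parenchyma at 0 to unlimited fat pad at 1, control libraries lay at 0.0689 to 0.165 and restricted libraries at 0.0293 to 0.177. The groups overlapped on this scale, with means of 0.108 ± 0.0505 (SD, n = 3) and 0.123 ± 0.0516 (n = 6) and an exact two-sided permutation p of 0.69. Counts assigned to genes were 13.6 to 15.7 M (M is the metric prefix mega) per control library and 9.70 to 17.2 M per restricted library, with 5 of the 6 restricted libraries at 9.70 to 11.8 M, below every control, and library 5 above every control. The share of uniquely placed reads assigned to genes was 28.5% to 43.5% in control and 23.9% to 46.4% in restricted libraries. The share of counts in the 10 most abundant genes of a library was higher in every restricted library, 14.3% to 18.0%, than in any of the 3 parenchyma control libraries, 10.6% to 12.7% (means 15.4% ± 1.40 and 11.7% ± 1.06, exact permutation p = 0.0119, the smallest that 84 splits allow, adjusted p = 0.107 over 9 library measures). Its part in the gene results was not tested. On a scale from unlimited parenchyma to unlimited liver, restricted libraries lay at 0.0264 ± 0.0144 and control libraries at 0.0613 ± 0.0262 (exact permutation p = 0.0238, adjusted p = 0.107).

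**Figure D1:**
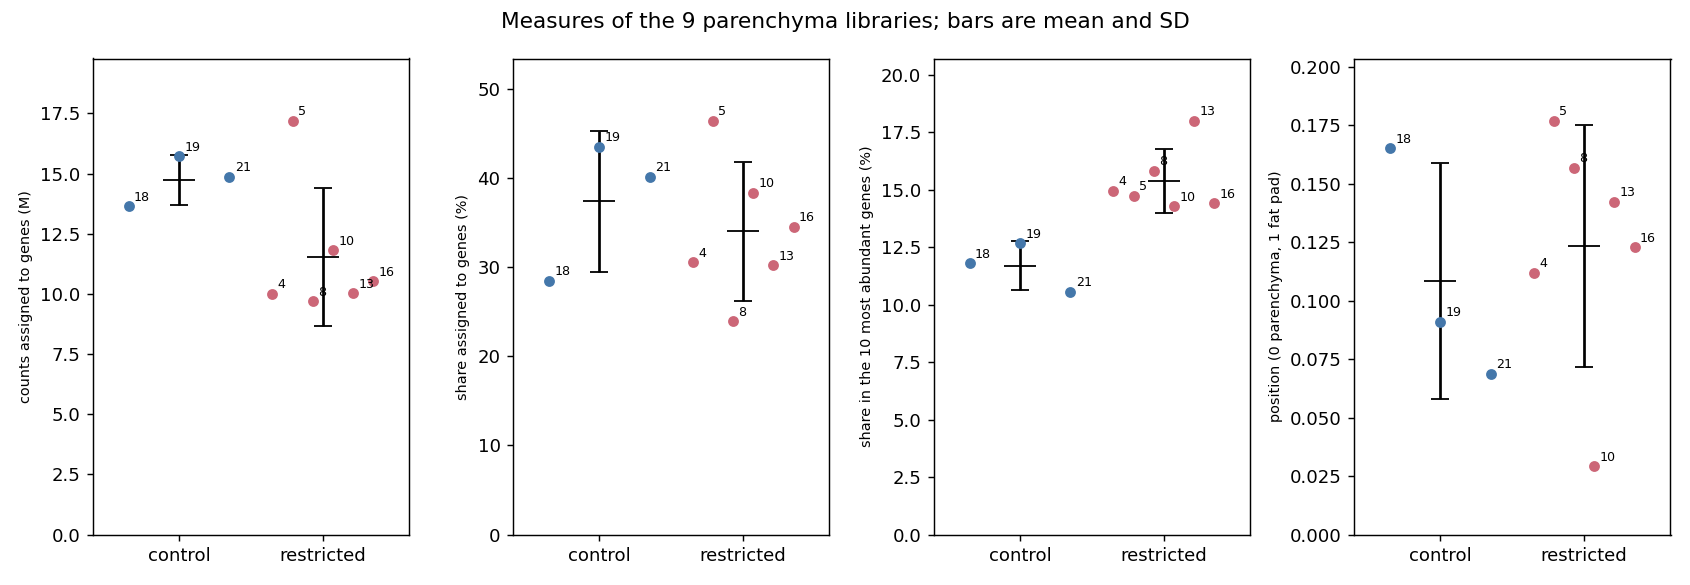
Depth in M counts, share of uniquely placed reads assigned to genes (%), share of counts in the 10 most abundant genes (%) and position between unlimited parenchyma (0) and unlimited fat pad (1), for the 3 control and 6 restricted parenchyma libraries. Points are libraries with their numbers, bars are mean and SD. Restricted libraries sit at 14.3% to 18.0% in the third panel, all above the controls. In the depth panel 5 restricted libraries lie below the controls and library 5 above them, and in the panels of assigned share and position the groups overlap.

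Few genes were called between parenchyma of restricted and of control calves in the main fit, a count that moved with the test and the libraries, as given below. Of 27607 genes, 14881 had enough counts to be tested, and 49 were called at an edgeR adjusted p under 0.05, which is 0.329% of those tested. Higher levels in restricted calves were called for 34 genes (0.228%) and lower levels for 15 (0.101%). Of the 49, 45 changed at least 2-fold and 11 at least 4-fold, against 1038 and 148 of all 14881 tested genes. The median log2 fold change was 1.38 for the higher and -1.75 for the lower genes. A call by p favours large estimates, so these sizes partly follow from the selection. Over all tested genes the median log2 fold change was 0.01 and the median size 0.23 on the log2 scale. Called genes had mean levels over the 9 libraries from 1.53 to 941 CPM (counts per M counts), with a median of 26.3 CPM against 17.0 CPM for all tested genes. In all 49 the restricted and control libraries did not overlap, as in 1114 of the tested genes (7.49%).

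**Figure D2:**
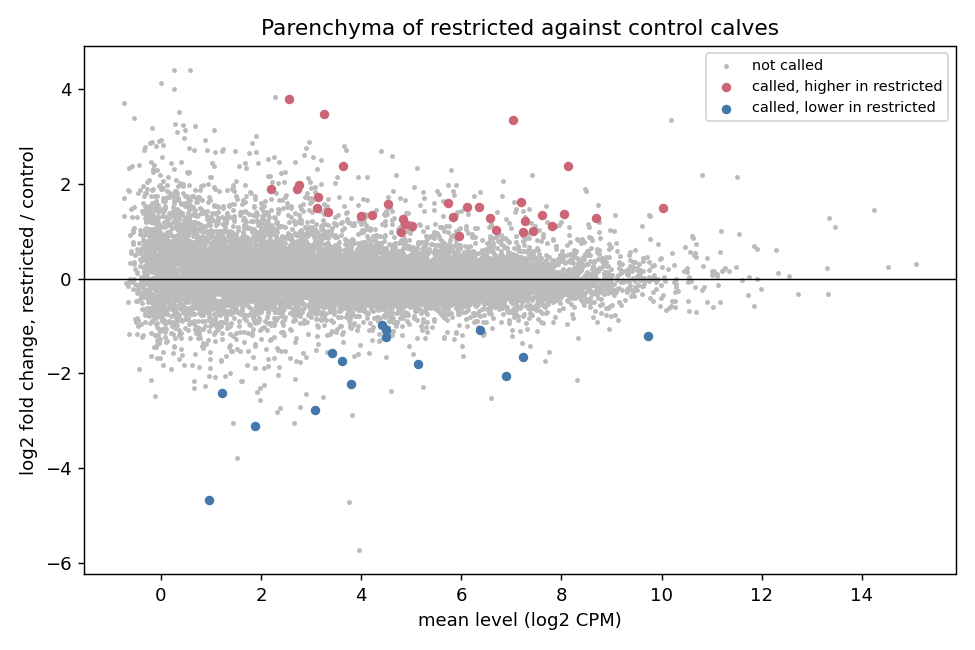
Each point is 1 of 14881 tested genes, with its mean level (log2 CPM) on the horizontal axis and the log2 fold change of restricted over control on the vertical axis. The 34 genes called higher and the 15 called lower have log2 fold changes from 0.91 to 3.79 and from -4.67 to -0.98, at levels from low to high, and some genes that were not called lie as far from 0.

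ENSBTAG00000004720 had the lowest p of all genes. Its control levels were 61.0, 61.3 and 46.0 CPM in libraries 18, 19 and 21. In restricted libraries 4, 5, 8, 10, 13 and 16 it stood at 140, 168, 177, 169, 177 and 178 CPM. The groups were far apart, and 5 of the 6 restricted libraries lay within a narrow band with library 4 below them. The fitted rise was 3.05-fold, and the means went from 56.1 ± 8.77 (SD, n = 3) to 168 ± 14.4 CPM (n = 6). On the log2 scale this was 1.61 ± 0.15 (SE), with an edgeR adjusted p of 0.00166.

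ENSBTAG00000000061 rose 2.43-fold in the fit. It was at 42.1, 42.8 and 49.2 CPM in control libraries 18, 19 and 21, and at 95.7, 117, 93.8, 117, 118 and 99.9 CPM in restricted libraries 4, 5, 8, 10, 13 and 16. Every restricted library exceeded every control, and restricted libraries fell into a lower trio of 4, 8 and 16 and a higher trio of 5, 10 and 13. On the log2 scale the rise was 1.28 ± 0.14 (SE), with an edgeR adjusted p of 0.00331.

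ENSBTAG00000007700 was the fall of lowest p. Control libraries 18, 19 and 21 were at 258, 238 and 254 CPM, and restricted libraries 4, 5, 8, 10, 13 and 16 at 59.6, 51.0, 111, 86.6, 85.6 and 77.4 CPM. Restricted library 8 was nearest to the controls and still below each of them. The group means were 250 ± 10.9 CPM (SD, n = 3) and 78.6 ± 21.5 CPM (n = 6). The fitted log2 fold change was -1.64 ± 0.20 (SE) with an edgeR adjusted p of 0.00876, and without control library 21 it did not pass (edgeR adjusted p = 0.0903, log2 fold change -1.65).

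ENSBTAG00000044194 stood at 110, 119 and 123 CPM in control libraries 18, 19 and 21. Restricted libraries 4, 5, 8, 10, 13 and 16 were at 53.9, 44.3, 76.0, 50.2, 52.5 and 48.4 CPM, so library 8 again lay closest to the controls. The fitted log2 fold change was -1.08 ± 0.16 (SE), with an edgeR adjusted p of 0.0201. This call was lost without control library 21 (edgeR adjusted p = 0.108) and without restricted library 4, 5, 13 or 16 (0.054, 0.0544, 0.0618 and 0.0611), while its log2 fold change stayed between -1.28 and -1.01 under 20 alternatives.

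**Figure D3:**
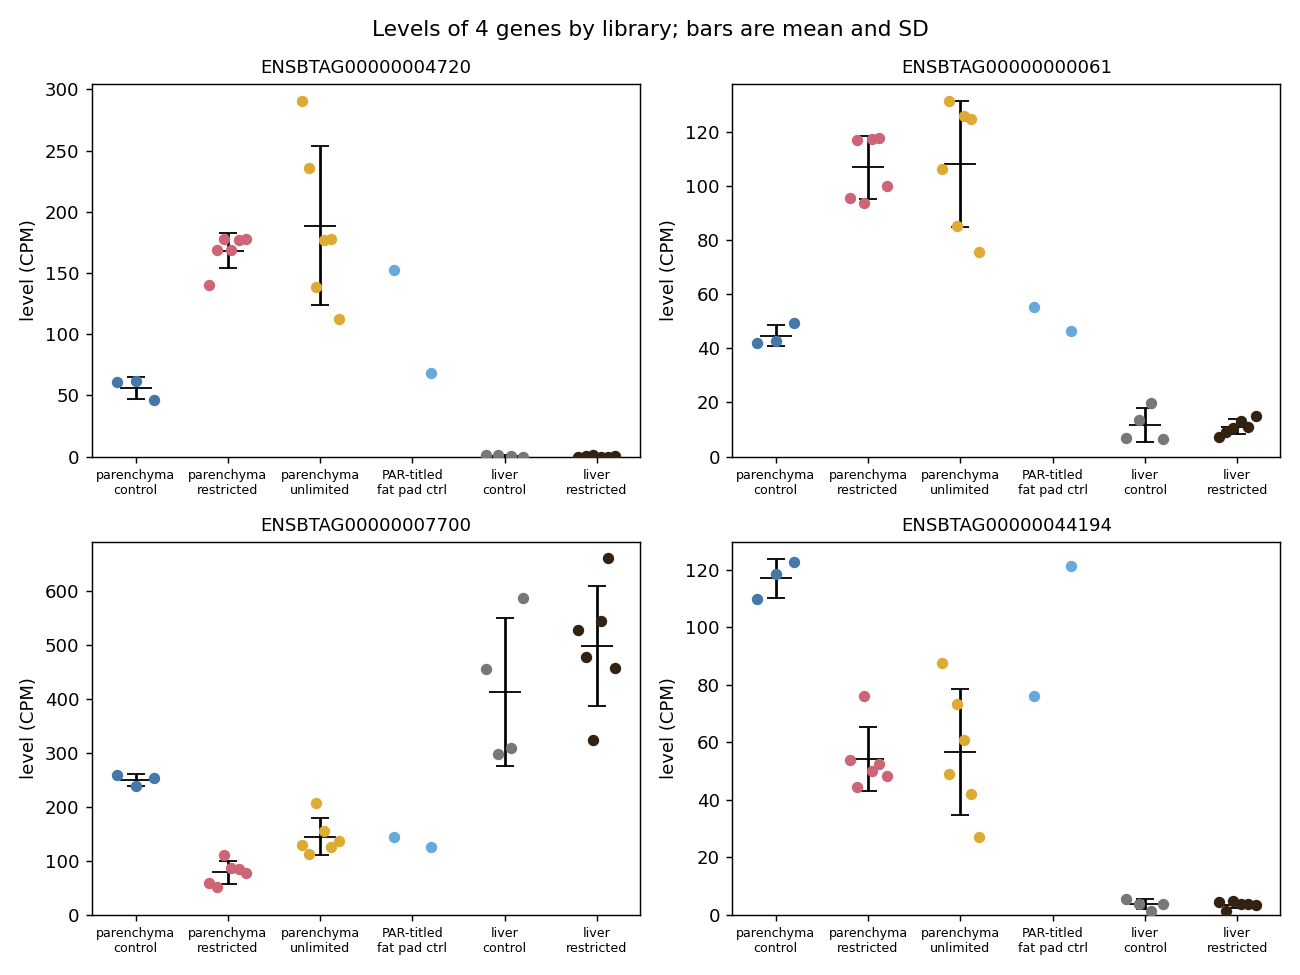
Levels in CPM (vertical axes, from 0) of the 2 genes called higher and the 2 called lower with the lowest p, by library, in parenchyma of 3 diets, in the 2 libraries labelled fat pad control whose titles hold PAR, and in liver of control and restricted calves. Points are libraries, bars are mean and SD. In all 4 genes the restricted and control parenchyma libraries do not overlap, and liver shows no such separation of the diets.

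The 6 restricted libraries did not depart from the controls equally. Over the 34 higher genes, the median log2 difference from the control mean was 1.14 in restricted library 8, 1.22 and 1.23 in libraries 4 and 16, 1.42 in library 10, and 1.58 and 1.62 in libraries 5 and 13. Over the 15 lower genes it was -1.10 in library 8 and -1.61 to -1.97 in the other 5. Library 8 was the restricted library nearest to the controls in 14 of the 34 higher and 9 of the 15 lower genes. It also had the lowest depth, 9.70 M, and the lowest assigned share, 23.9%, of the 9 libraries, and the part of these in its levels was not tested.

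The number of called genes depended on which libraries were in the fit. It was 47 without control library 19 and 57 without restricted library 10, close in number to the 49 of the full set. The genes were partly others, as these held only 27 and 38 of the 49. It was 2 without control library 21 and 29 without control library 18, with 13 of the 49 among the 29. Without restricted library 4, 5, 13 and 16 it was 9, 9, 9 and 8. Without restricted library 8 it was 316 (2.12% of the genes tested then), with all 49 among them. Both genes that stayed called in each of the 9 omissions were higher in restricted calves, ENSBTAG00000004720 and ENSBTAG00000000061, and another 5 stayed called in 8 of them. For 46 of the 49 genes the highest adjusted p arose without control library 21. The estimates moved less than the calls: each omission left all 49 genes with the sign they had in full, as the choice of genes whose groups do not overlap fixes, and their median absolute log2 fold change, 1.49 with all libraries, was 1.39 to 1.57.

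**Figure D4:**
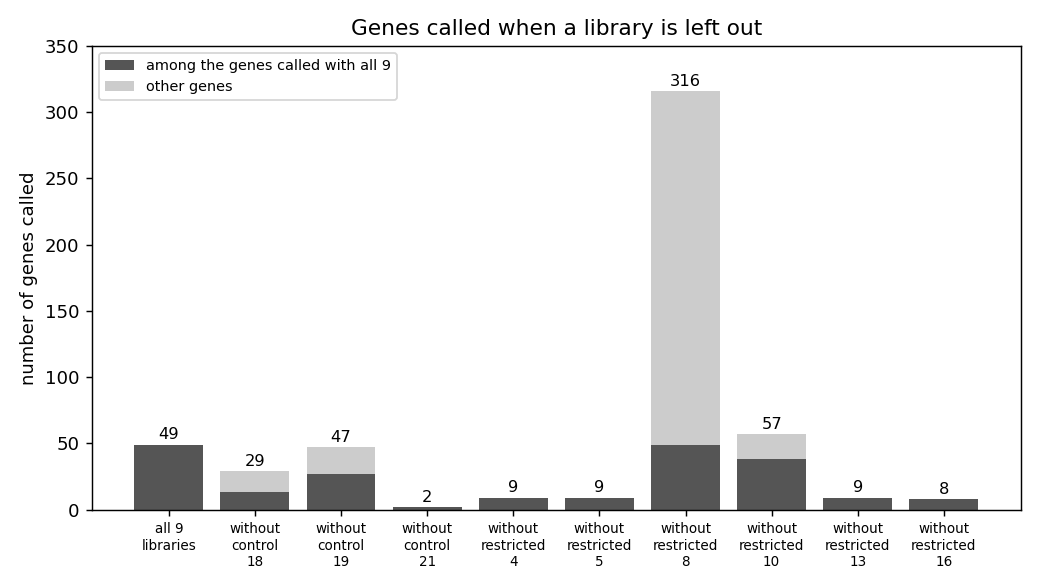
Number of genes called (vertical axis) with all 9 libraries and with each library left out in turn. Dark bars count genes among the 49 called with all libraries, light bars count other genes. The count falls to 2 without control library 21 and climbs to 316 without restricted library 8.

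The count also depended on the test and the scaling. DESeq2 called 635 of 15654 genes (4.06%), 446 higher and 189 lower, and limma voom with quality weights called 80 (0.538%), 42 higher and 38 lower. All 49 genes were among those of DESeq2 and 42 among those of limma voom. With library size alone in place of TMM scaling, 80 genes were called (0.538%), 38 higher and 42 lower. The excess of higher genes in the main fit (34 against 15) was thus absent there. It was small in limma voom, which also used TMM, and remained with RLE size factors (33 against 14). Without adjustment, 1221 higher and 944 lower genes had an edgeR p under 0.05, with median log2 fold changes of 0.92 and -0.57 and median levels of 14.2 and 32.1 CPM. A fit with the total count of each library as covariate, added once the depths had been seen, called 39 genes, including 23 of the 49 and all 4 printed here.

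Libraries outside the comparison showed where else the called genes were expressed. Genes were put in classes from unlimited libraries alone: liver genes were at least 1 log2 unit higher in liver than in both mammary tissues, and of the remaining genes those at least 1 log2 unit apart between the mammary tissues were assigned to the tissue with the higher level. Of the 49 called genes, 20 were parenchyma genes (40.8%, against 13.2% of all tested genes), 4 fat pad genes (8.16% against 10.6%) and 9 liver genes (18.4% against 10.0%). Parenchyma genes made up 15 of the 34 higher and 5 of the 15 lower genes, so they occurred in both directions. In unlimited libraries 10 of the 49 were higher in fat pad than in parenchyma (20.4%, against 48.8% of all tested genes). Whether detection differs between the classes was not tested.

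ENSBTAG00000004720 was a parenchyma gene by these classes and all but missing from liver, at 0 to 1.50 CPM in restricted and 0 to 1.27 CPM in control liver. ENSBTAG00000044194 was also a parenchyma gene. ENSBTAG00000007700 fell in the liver class by a narrow margin. In unlimited libraries it was 1.01 log2 units higher in liver than in parenchyma, where the cut-off was 1. The difference of fat pad from parenchyma there was -2.47 log2 units. Its levels were 498 ± 111 CPM in restricted liver (SD, n = 6) and 412 ± 137 CPM in control liver (n = 4). ENSBTAG00000000061 fell in no class.

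The same diets in liver gave a comparison with no library in common. However, 8 of the 9 parenchyma libraries have a liver library of the same number, and the labels do not state whether a number marks a calf. Of the 49 genes, 38 were tested in liver and 0 were called there in edgeR, where 0.85% of 14238 tested genes were called. Of the 26 higher genes tested in liver, 15 had a positive and 11 a negative fold change, with a median log2 fold change of 0.03. Of the 12 lower genes, 6 had a positive and 6 a negative fold change, with a median of 0.00. ENSBTAG00000000061 was at 11.0 ± 2.68 CPM in restricted (n = 6) and 11.6 ± 6.31 CPM in control liver (n = 4). The fitted log2 fold change there was -0.14 ± 0.31 (SE), with an edgeR adjusted p of 0.899.

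Whether the diet effect differed between parenchyma and liver was tested as an interaction. A difference was called for 46 of 16302 genes (0.282%). The parenchyma change was the more positive in 22 and the more negative in 24 of them, and 8 of the 49 called genes were included. The parenchyma libraries enter both tests, so this overlap is not independent. For ENSBTAG00000007700, the fall in parenchyma differed from a log2 fold change of 0.24 ± 0.23 in liver (SE, edgeR adjusted p = 0.718) by -1.89 ± 0.33 (edgeR adjusted p = 0.0153), a call lost without number 4, 5 or 18 (edgeR adjusted p = 0.0522, 0.0559 and 0.0963). The difference was not called for ENSBTAG00000000061 (1.43 ± 0.35, edgeR adjusted p = 0.0807), ENSBTAG00000044194 (-1.10 ± 0.40, 0.258) or ENSBTAG00000004720 (2.29 ± 0.94, 0.324). ENSBTAG00000004720 was at most 1.50 CPM in liver of these diets and was not tested in the liver fit. Its liver change is thus barely measured, and nothing is drawn from its value here. The interaction count was 41, 43 and 35 without number 1, 2 and 19, and 8, 7, 186, 28, 21, 26, 14 and 27 without number 4, 5, 8, 10, 13, 16, 18 and 21, and DESeq2 called 324. With library number as a replicate block, 14 genes were called, of which 8 were among the 46. ENSBTAG00000007700 did not pass in that fit (edgeR adjusted p = 0.164).

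Levels in parenchyma of unlimited calves are set beside these, although the comparisons share libraries: unlimited against control, with 12.4% of tested genes called, uses the same controls, and unlimited against restricted, with 12.6% called, the same restricted libraries. The 34 higher genes had a median log2 difference from the control mean of 1.17 to 1.55 in single unlimited libraries, against 1.14 to 1.62 in restricted libraries. The 15 lower genes were at -1.72 to -1.10 in unlimited and -1.97 to -1.10 in restricted libraries. ENSBTAG00000004720 was at 189 ± 65.1 CPM in unlimited parenchyma (SD, n = 6), between 112 and 290 CPM, and ENSBTAG00000000061 at 108 ± 23.3 CPM, neither called against restricted parenchyma (edgeR adjusted p = 0.648 and 0.994). ENSBTAG00000007700 lay between the other diets, at 145 ± 33.8 CPM, and was called both against control (log2 fold change -0.79 ± 0.17, edgeR adjusted p = 0.0108) and against restricted parenchyma (0.86 ± 0.18, edgeR adjusted p = 0.00922). ENSBTAG00000044194 was at 56.6 ± 22.0 CPM and was not called against restricted parenchyma (edgeR adjusted p = 0.929).

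The 2 libraries labelled fat pad control with PAR in their titles, numbers 1 and 2, are control libraries that took no part in the call of the 49 genes. The series title uses PAR for parenchyma, and on the scale from parenchyma to fat pad they lay at 0.0341 and 0.116, within the range of the 9 parenchyma libraries. Fat pad control library 21, titled with PPP, also correlated best with unlimited parenchyma and lay at 0.256, beyond that range. Its number is also that of a parenchyma control. It was below all 6 restricted libraries in 29 of the 34 higher genes and above all 6 in 12 of the 15 lower genes. Library 2 resembled the parenchyma controls in the called genes, with a median log2 difference from the control mean of 0.07 over the 34 higher and -0.14 over the 15 lower genes. It lay below all 6 restricted libraries in 33 of the 34 higher genes and above all 6 in 13 of the 15 lower genes. Library 1 lay part of the way towards restricted parenchyma, with medians of 0.51 and -0.90, and was beyond all 6 restricted libraries on the control side in 26 of 34 and 10 of 15 genes. It had 5.87 M counts, against 9.70 M or more in each of the 9 parenchyma libraries. The part of this depth in its levels was not tested. The single genes varied: ENSBTAG00000004720 was at 152 CPM in library 1, inside the restricted range, and at 67.9 CPM in library 2, while ENSBTAG00000000061 was at 55.3 and 46.5 CPM, below every restricted library. ENSBTAG00000007700 was at 144 and 125 CPM and ENSBTAG00000044194 at 76.3 and 122 CPM, both above every restricted library. With these libraries counted as parenchyma controls, 198 genes were called (1.38%), 136 higher and 62 lower, and 42 of the 49 were among them.

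**Figure D5:**
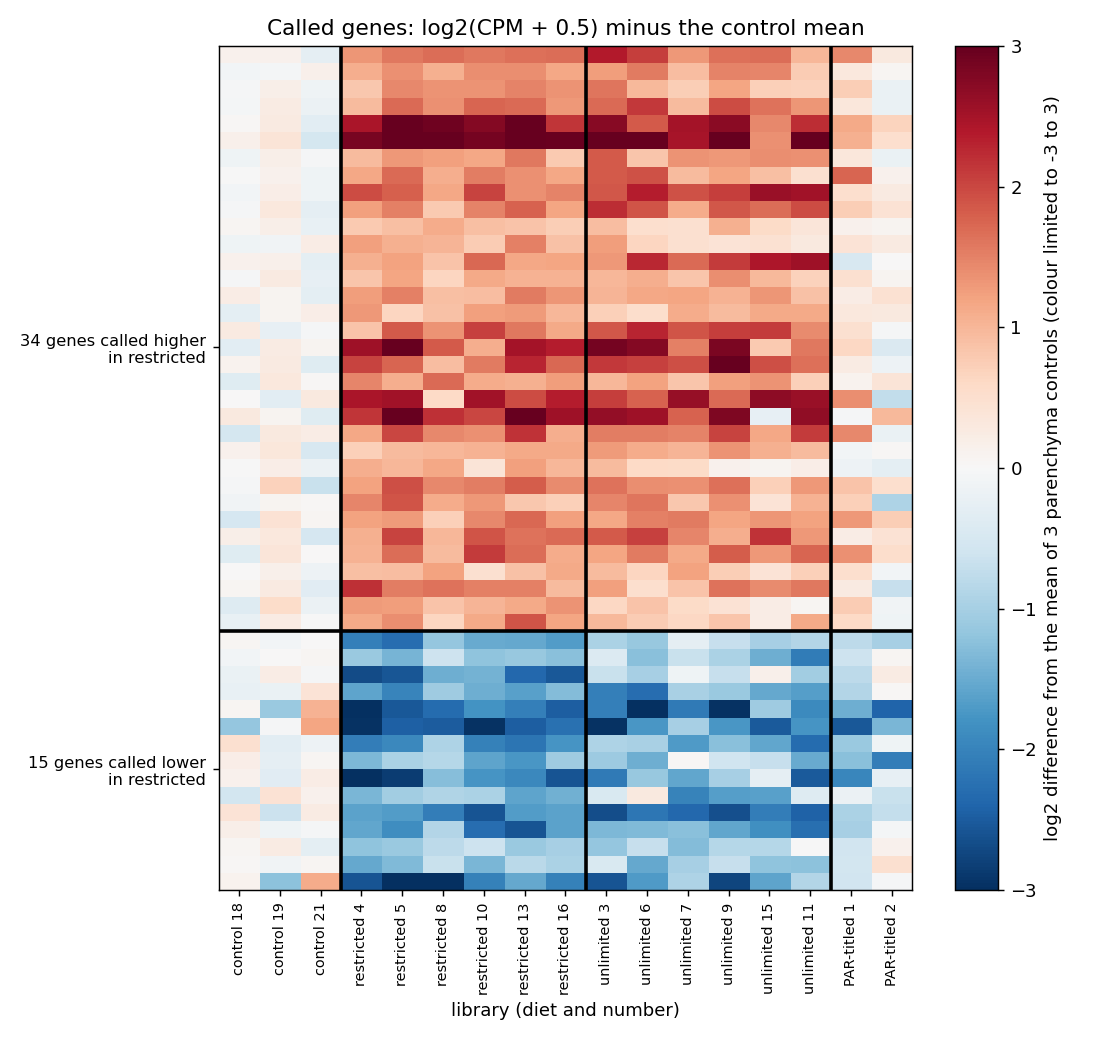
Colour gives log2(CPM + 0.5) minus the mean of the 3 parenchyma controls, limited to between -3 and 3, for the 49 called genes (rows, by direction and p) in parenchyma libraries of 3 diets and in the 2 PAR-titled libraries labelled fat pad control (columns). Restricted and unlimited columns share the red upper and blue lower blocks, while PAR-titled library 2 is pale in most genes and library 1 lies between.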

How the data were processed

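The authors deposited, for each library, read counts per gene for 27607 cattle genes with Ensembl identifiers and 5 summary entries. STAR 2.7.8, HTSeq 1.99.2, FastQC and DESeq2 and the build ARS-UCD1.2 are named per the submitters' processing notes; strand and multi-read settings are not stated in any source used here. Reads of overlapping, antisense and near-identical genes may therefore be misassigned. The summary entries, including reads outside features (53.0% to 75.8% of uniquely placed reads in the 9 libraries), stayed out of library sizes and tests. Groups follow the tissue and diet fields; replicate numbers are those in the titles. A parenchyma control sample titled with PAD was not analysed here.

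Restricted and control parenchyma were fitted alone with edgeR 4.0.16 in R 4.3.3: filterByExpr (minimum count 10, total 15), TMM factors, robust dispersion, quasi-likelihood F test, Benjamini-Hochberg adjustment over all genes tested, threshold 0.05. The interaction with liver used 19 libraries in 4 groups. Levels are CPM on TMM-scaled sizes of all 47 libraries, log2 levels add a prior count of 2, and errors of log2 fold changes come from the F statistic. Position is a projection on the difference of unlimited tissue means over tested genes. Alternatives used limma 3.58.1 and DESeq2 1.42.0, other scalings, filters, covariates and omissions. Scripts were tested on simulated data. Pairs of libraries within a group differed by more than counting noise, with a chi-square per degree of freedom of 27.9 or more. Identifiers printed are the 2 of lowest p per direction among called genes, as planned for the case of no symbols, and the gene lists and markers prepared for this comparison could not be used. The comparison, lists and rules were chosen with earlier results of these data known.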

Additional observations from a re-analysis of the deposited data

Results flagged for a closer look

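A measure or a printed gene was checked within groups of 4 to 10 libraries. Of 25 such checks, 4 held a library far from the rest, where chance gives about 1 in 20 for a single check. The checks share libraries and genes, so they are not independent. Restricted parenchyma library 5 had 17.2 M counts, against 9.70 to 11.8 M in the other restricted parenchyma libraries. ENSBTAG00000004720 was at 140 CPM in restricted parenchyma library 4 (others 168 to 178 CPM) and at 1.50 CPM in restricted liver library 8 (others 0 to 0.508 CPM). ENSBTAG00000044194 was at 76.0 CPM in restricted parenchyma library 8 (others 44.3 to 53.9 CPM).

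The effect of the restricted against the control diet differed between parenchyma and liver, by the interaction test, for 46 genes, 22 more positive and 24 more negative in parenchyma. For ENSBTAG00000007700 this difference was -1.89 ± 0.33 on the log2 scale (SE), with an edgeR adjusted p of 0.0153. Both results are from a fit that treated the libraries as unpaired. With library number as a replicate block, 14 genes were called, of which 8 were among the 46. ENSBTAG00000007700 did not pass there (edgeR adjusted p = 0.164). Control numbers 1 and 2 have no parenchyma library in that fit and number 19 no liver library, so they add nothing to the difference. A lost call there therefore also reflects fewer controls, and the part of pairing was not tested.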

How the results depend on the processing

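The count of 49 called genes stayed within 1.5 times with RLE size factors (47 of the 49 genes kept) and with a filter of 1 CPM in 3 libraries (49 kept). A covariate for total count, chosen after seeing the data, gave a count of 39 that held only 23 of the 49 genes. It was 80 with library size alone, 635 with DESeq2, 80 with limma voom, 101 with no filter on low counts, 240 with all 3 parenchyma diets in 1 fit, 198 with the PAR-titled libraries as controls, 121 with the assigned share and 85 with position as a covariate, and 2 to 316 when single libraries were left out. The cause of these moves was not tested. Under 20 alternatives the 2 higher genes named passed in all 20, ENSBTAG00000007700 in 19 and ENSBTAG00000044194 in 15, with no change of sign in any of the 4. ENSBTAG00000004720 passed only narrowly with the PAR-titled libraries as controls (edgeR adjusted p = 0.0489). Its log2 fold change was 1.13 there, against 1.61 in the main fit. With 3 controls, leaving one out leaves 2, so a lost call there also reflects fewer samples.

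Restricted and control parenchyma share no library number, so no block could be fitted to that comparison. For the interaction with liver, a fit with library number as a replicate block called 14 genes against 46, of which 8 were shared, and ENSBTAG00000007700 did not pass in it (edgeR adjusted p = 0.164, log2 difference -1.90). The deviations of same-numbered parenchyma and liver libraries correlated at -0.0321 to 0.321 over 8 pairs. Of the 8 parenchyma libraries, 5 correlated best with their own number, a hint of pairing from the data that the labels do not state. The numbers were not taken as pairs because not every pair reached a correlation of 0.1. DESeq2 called 324 for the interaction, and omissions gave 7 to 186.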
